A study of Salmo trutta with 24 samples.

Results

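The comparison described here is that of 3 male brown trout (*Salmo trutta*) exposed to 18.1 ng E2/l with 6 control males, 9 of the 24 fish of the series. These 9 fish were taken by their labels, and all columns that carry their counts were used. E2 is 17β-estradiol, the main natural estrogen of vertebrates, and it was dosed into flowing water without a solvent, the controls receiving dilution water alone. All fish were adult, sexually mature males of a farmed, mixed-sex population, and RNA was taken from the liver of each fish separately. The exposure lasted 4 days according to the sample characteristics and the methods, whereas a protocol field of the labels gives a longer time. Each E2 concentration was run in 1 tank and the controls in a pair of tanks that the labels do not assign to fish, so tank and treatment cannot be told apart, and p-values measure only the spread between these fish. The lowest and the highest group of the same exposure, 1.9 and 34.4 ng E2/l with 3 males each, serve below only to place the group at 18.1 ng E2/l.

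In egg-laying vertebrates the liver is a target of estrogen. Estrogen bound to its nuclear receptors activates transcription of *esr1*, the receptor gene that itself responds to estrogen, and of the genes for vitellogenins, the yolk precursors, and for egg envelope (zona pellucida) proteins, which female liver secretes into the blood for uptake by the ovary. Males carry the same genes, express them little, and switch them on when exposed to estrogen, which is why these transcripts serve as markers of estrogenic contamination in fish.

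The table of this comparison listed 56914 assembled transcripts (contigs), of which 32892 carried an annotation by similarity to a protein of another species, and these summed to 10886 annotations. Totals ran from 3889164 to 8625331 counts per control fish and from 7383263 to 9404415 per exposed fish. Before TMM scaling, 1 CPM (a count scaled to the library's total) thus stood for 3.89 to 9.4 counts. The TMM factors, which change these counts, ran from 0.829 to 1.17. Levels below are CPM on libraries scaled by TMM, log2 fold changes give exposed relative to control fish, and "sum" means the counts of all contigs that share an annotation. The leading log2 distance over 500 features averaged 4.03 between exposed fish, 4.12 between control fish and 4.01 between an exposed and a control fish, so the exposed fish did not form a group of their own. Summed hepatocyte markers lay between 162772 and 256873 CPM in exposed fish and between 177410 and 227835 in controls. No testis marker was listed. Fewer cells of a type and less RNA per cell cannot be told apart in these bulk samples.

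No transcript passed an adjusted p of 0.05 in edgeR's quasi-likelihood test (0 of 56914, 0%), and 1448 (2.54%) had an unadjusted p under 0.05. No annotation sum passed either, out of 10886, the lowest adjusted p being 0.999. Of the sums, 160 (1.47%) were higher and 137 (1.26%) were lower at an unadjusted p under 0.05. All 3 exposed fish lay above all 6 controls for 89 sums (0.818%) and below them for 73 (0.671%). Random exchange of the labels of 3 and 6 fish would separate them in either direction with a probability of 0.0238, so such sums were not in excess. DESeq2 called 1 transcript and 1 annotation, and edgeR's exact test called 2 transcripts and 2 annotations. The values that follow are therefore differences that did not pass the correction over all features, and every gene named below had an adjusted p of at least 0.999 in that test.

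Among the receptors, *esr1* (ENSDARG00000004111) stood second among the sums that were higher. Its level was 32.6, 21.8, 11.8, 10.5, 15.6 and 22.5 CPM in controls 1 to 6 and 65, 71 and 27.9 CPM in exposed fish 1, 2 and 3. Exposed fish 1 and 2 lay above every control, while exposed fish 3 lay below control 1 and above the other controls, so the groups overlapped. The mean was 2.86 ± 1.22 times the control mean (SD over the 3 exposed fish), or 1.51 on the log2 scale (standard error 0.37), and the unadjusted p was under 0.05. A two-sided exact permutation test of its log2 levels gave p = 0.0476, where 3 against 6 fish allow 0.0238 at the least; it was 1 of 11 such tests on the genes of this kind, and the p is not adjusted for them. All 6 contigs of *esr1* were higher, with log2 fold changes from 1.11 to 1.71, and in 2 of them all 3 exposed fish lay above the 6 controls. The contigs come from 1 assembly component and share reads, so they are not separate measurements. Leaving out any fish kept the log2 fold change of the sum between 1.28 and 1.83.

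The other estrogen receptor genes gave no such difference. *esr2b* was at 339 ± 97 CPM (SD, n = 6) in control and 359 ± 30 CPM (SD, n = 3) in exposed fish, a log2 fold change of 0.08 (standard error 0.26). *esr2a* was at 6.85 ± 3.11 and 6.65 ± 5.18 CPM, for a log2 fold change of -0.01 (standard error 0.50), whose sign turned with library totals. The 13 annotations of sex steroid receptors and coactivators had a median log2 fold change of -0.033, beside 0.011 over all 10886 sums, and *esr1* was the only member with an unadjusted p under 0.05.

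The egg envelope genes were higher mainly in exposed fish 2. For *zp2.5* (ENSDARG00000086522) the controls had 41, 26.4, 7.47, 13.4, 31.4 and 64.1 CPM and the exposed fish 53.9, 162 and 43.7 CPM. Only exposed fish 2 lay above the highest control, and the log2 fold change was 1.49 (standard error 0.56; two-sided exact permutation test, p = 0.0952). *zp2.2* (ENSDARG00000091737) was at 16.3, 22.1, 4.34, 3.89, 20.3 and 52.9 CPM in controls and at 34.6, 138 and 15.3 CPM in exposed fish, which gave a log2 fold change of 1.63 (standard error 0.75). Again only exposed fish 2 exceeded the controls, and control 6 stood apart from the other controls at the upper end.

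*zp3a.2* (ENSDARG00000042130) had a log2 fold change of 0.89 (standard error 0.49). Its levels were 65.8, 145 and 37.1 CPM in the exposed fish and 12.5 to 73.9 CPM in controls. *zp3a.1* (ENSDARG00000042129), with 11.2, 32 and 7.35 CPM beside 0.963 to 11.7 CPM in controls, had a log2 fold change of 1.12 (standard error 0.54). All 16 contigs of these 4 genes were higher in exposed fish, and for none did the groups separate. The median log2 fold change of the 4 listed zona pellucida annotations was 1.308, and without exposed fish 2 it was 0.292, with no member left at an unadjusted p under 0.05. Without that fish the log2 fold change of *zp2.5* was 0.67, of *zp2.2* 0.31, of *zp3a.1* 0.27 and of *zp3a.2* 0.22. Members of this family may share reads, which single-hit mapping can divide between them, so the levels of single members are uncertain.

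**Figure D1:**
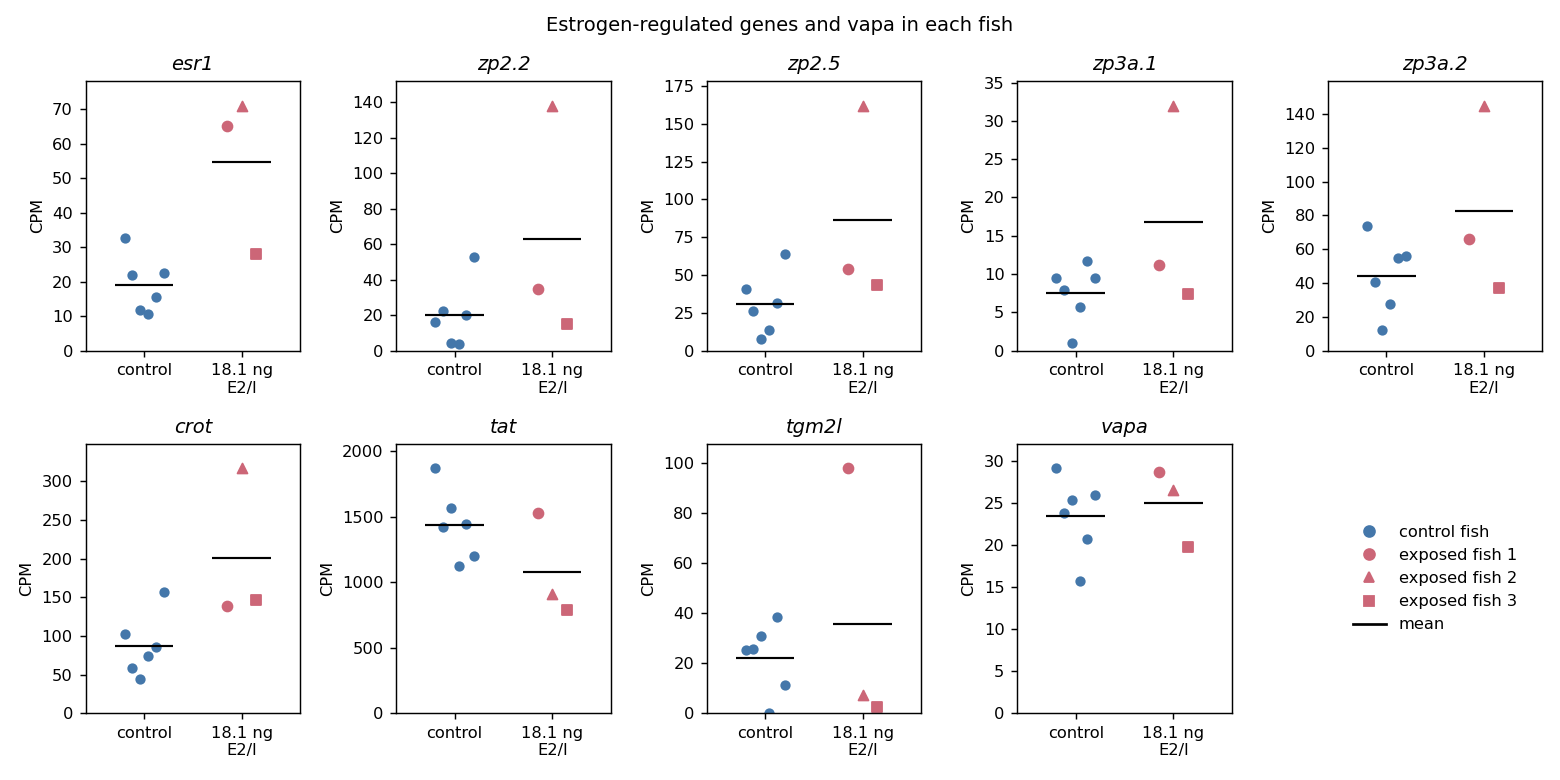
Level in CPM of *esr1*, the 4 listed egg envelope genes, *crot*, *tat*, *tgm2l* and *vapa* in each of the 6 control fish and in exposed fish 1, 2 and 3 (counts summed per annotation, TMM-scaled; lines are group means). Exposed fish 2 is the only fish above all controls for each zp gene, at 162 CPM for *zp2.5*, while exposed fish 1 and 2 both exceed the controls for *esr1*.

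No vitellogenin and no nothepsin annotation was among the 56914 transcripts, which held only contigs that reached at least 1.03 CPM in 3 of the 9 fish. The 29 contigs of *vtg1* were listed only in the table at 34.4 ng E2/l, where they summed to at most 17 counts in a control fish. Their counts in fish exposed to 18.1 ng E2/l are therefore not known from these data beyond that limit. Nothepsin, a liver aspartic protease of female fish, was at no more than 2 counts in any control in that table.

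Of the remaining genes that were also measured by RT-QPCR in the study, *crot* (ENSDARG00000040352) encodes carnitine O-octanoyltransferase, a peroxisomal enzyme that moves medium-chain acyl groups to carnitine. It was at 103, 58.9, 44.3, 74.3, 85.9 and 157 CPM in controls and at 140, 317 and 147 CPM in exposed fish. Exposed fish 2 lay above the highest control, and the other exposed fish lay within the control range, at its upper end. The log2 fold change was 1.2 (standard error 0.38; two-sided exact permutation test, p = 0.0714), and 0.71 without exposed fish 2. All 5 contigs were higher, from 0.94 to 1.3 on the log2 scale. They come from the same assembly component as the contigs of the listed egg envelope genes, so reads may be shared between *crot* and these genes.

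*tat* (ENSDARG00000069630) encodes tyrosine aminotransferase, the enzyme that starts tyrosine breakdown in liver. Its sum was 1440 ± 268 CPM (SD, n = 6) in control fish and 1528, 914 and 790 CPM in the exposed fish, of which 2 lay below every control. The log2 fold change was -0.42 (standard error 0.27), and all 16 contigs had a negative value. The contigs of *tat* come from few assembly components and may share reads, so they are not separate measurements. *tgm2l* (ENSDARG00000093381), a transglutaminase 2-like gene, ranged from 0.288 to 38.6 CPM over controls and was at 98, 7.35 and 2.45 CPM in exposed fish. The highest and nearly the lowest of the 9 fish were thus both exposed, and the log2 fold change of 0.71 (standard error 1.01) became -2.2 without exposed fish 1. *vapa* (ENSDARG00000046048), the gene used as reference in RT-QPCR, was at 23.4 ± 4.69 CPM in control and 24.9 ± 4.65 CPM in exposed fish, and its log2 fold change of 0.09 (standard error 0.23) changed sign without exposed fish 1, to -0.02.

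The genes that the study lists as changed most at 34.4 ng E2/l were followed at 18.1 ng E2/l. Of 21 annotations most raised there, 11 were listed in the table of this comparison, 9 of them with a positive log2 fold change, and 4 (*esr1*, *crot*, *zp2.5* and *zp2.2*) had an unadjusted p under 0.05, beside 1.47% of all sums. Their median log2 fold change was 1.009, and without exposed fish 2 it was 0.312 with 1 member, *esr1*, under that limit. Members with little difference included *aqp12*, a water channel gene, at 5.19 ± 1.92 CPM in control and 5.10 ± 0.709 CPM in exposed fish. This list was chosen by the study at another concentration against the same 6 controls, so it is not independent of them. The contigs of *crot* and of the egg envelope genes in this list come from the same assembly component and may share reads. These members are therefore not separate measurements.

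Of the 22 annotations most lowered at 34.4 ng E2/l, all were listed, 16 had a negative log2 fold change, and 2 had an unadjusted p under 0.05, beside 1.26% of all sums. The median was -0.142. The study chose this list, too, at another concentration against the same control fish. The signs, counts and median of the list are therefore not independent of these controls, and the share of all sums is no fair background for them. *igfbp1a* (ENSDARG00000014947), a binding protein of insulin-like growth factors, was at 1602, 320, 492, 41.2, 130 and 254 CPM in controls and at 129, 74.6 and 51.8 CPM in exposed fish. The exposed fish lay within the control range, at its lower end, and control 1 lay far above the other fish (log2 fold change -2.47, standard error 0.92). The ERBB receptor feedback inhibitor 1, a brake on growth factor receptors, had a log2 fold change of -0.94 (standard error 0.37) for that of its 2 annotations which held 15 contigs. Its levels were 69.1, 187 and 149 CPM in exposed fish and 141 to 395 CPM in controls. Exposed fish 1 differed from the others over this list, with a median log2 difference from the controls of 0.312 beside -0.626 and -0.745 in exposed fish 2 and 3. Without it 7 of the 22 had an unadjusted p under 0.05, where 2.62% of all sums were lower and 1.65% higher at that limit. Without exposed fish 2, 1 of the 22 was lower at that limit, beside 1.14% of all sums. Without exposed fish 3 it was also 1, beside 2.04% of all sums, and the median was 0.008.

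The annotation that DESeq2 called, also called by the exact test, was transcobalamin like (ENSDARG00000068088), of the family of vitamin B12 carrier proteins. It was at 37.9, 47.7, 59, 39.7, 16.8 and 13.2 CPM in controls and at 2.71, 7.18 and 7.26 CPM in exposed fish, so that all 3 lay below all 6 controls. The exposed mean was 0.160 ± 0.0729 times the control mean, that is, a log2 fold change of -2.64 (standard error 0.53). DESeq2's adjusted p was 0.000615 and that of edgeR's exact test was 0.00664. The annotation rests on 1 contig, with 24 to 416 counts per fish. Leaving out any exposed fish kept the log2 fold change between -2.87 and -2.30.

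The exact test alone called *ripk2* (ENSDARG00000089319), a kinase that acts downstream of intracellular receptors for bacterial cell wall fragments in mammals. Its level was 4.94, 2.06, 1.2, 2.02, 1.24 and 1.91 CPM in controls and 4.41, 14.4 and 12.3 CPM in exposed fish, which overlapped in exposed fish 1 and control 1. The log2 fold change was 2.2 (standard error 0.46), and the exact test of edgeR gave an adjusted p of 0.0159. The 2 transcripts called by the exact test had no annotation. The contig with the lower p was at 0 to 0.885 CPM in controls and at 3.54, 13.6 and 4.74 CPM in exposed fish. The other was at 0 to 0.117 CPM in controls and at 1.77, 1.25 and 1.3 CPM in exposed fish. In both, no control reached the 1.03 CPM that every listed contig reached in 3 fish. They were thus listed only through the exposed fish, and their separation was a condition of being listed.

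Of the 89 sums in which all 3 exposed fish were above the 6 controls, the 10 named ones with the lowest p had log2 fold changes from 0.64 to 2.19. *calua*, which encodes the calcium-binding secretory pathway protein calumenin, was at 47, 53.7 and 42.2 CPM in exposed fish and at 18.1 to 36.9 CPM in controls, 1.74 ± 0.211 times higher in the mean. *chd2*, a chromatin remodeler, was at 52.6, 42.9 and 44.3 CPM beside 22.6 to 38.1 CPM in controls, and 17 of its 18 contigs were higher. Most of these contigs come from the same assembly component, so they are not separate measurements. *daxx* (annotated as death-associated protein 6), a histone chaperone, was at 4.41, 3.92 and 3.9 CPM beside 1.73 to 2.64 CPM. In 1 of its 2 contigs only control 1 reached 1.03 CPM, so that contig would not have been listed without the exposed fish. The other contig alone was at 1.99, 2.82 and 2.32 CPM beside 0.497 to 1.91 CPM in controls. The exposed fish lay close to one another in *calua*, *chd2* and *daxx*. These were picked for full separation and a low p, a choice that favours such values. *samd9*, known in mammals for restricting viruses, had 11.5, 6.21 and 7.08 CPM beside 3.55 to 5.24 CPM. *entpd1* encodes an enzyme that breaks down extracellular ATP and rests on 1 contig. Among controls only control 4 reached 1.03 CPM, the level that every listed contig reached in 3 fish. The contig would therefore not have been listed without the exposed fish. Its log2 fold change was the largest of these 10, at 2.19 (standard error 0.71), on 0 to 28 counts per fish. The others were *sh3tc2*, *tmem69*, and the unnamed loci si:ch211-240b21.2, si:ch211-150o23.3 and zgc:56622, the last at 100, 103 and 90.8 CPM beside 49.4 to 78.9 CPM. A contig of *tmem69* and some contigs of si:ch211-150o23.3 and of *chd2* also reached 1.03 CPM in fewer than 3 controls.

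Of the 73 sums in which all 3 exposed fish were below the controls, the 10 named ones were led by transcobalamin like and *tom1l2*, which encodes an adaptor of endosomal sorting. *tom1l2* was at 9.55, 9.86, 9.15, 8.78, 9.24 and 9.54 CPM in controls and at 4.18, 4.90 and 5.63 CPM in exposed fish, and the controls differed from one another less than the exposed fish did. Its log2 fold change was -0.93 (standard error 0.22), and all 6 contigs had a negative value. Most of these contigs come from the same assembly component, so they are not separate measurements. The 10 named sums were picked for full separation and a low p, a choice that favours controls that lie close together. *pcca*, a subunit of mitochondrial propionyl-CoA carboxylase, was at 20.4, 14.9 and 16 CPM beside 22.6 to 37.6 CPM in controls, for a log2 fold change of -0.86 (standard error 0.23). *ldhd*, the mitochondrial D-lactate dehydrogenase, was at 3.51, 3.43 and 2.36 CPM beside 4.09 to 8.89 CPM, and *lamc1*, a basement membrane laminin chain, at 1.92, 2.29 and 2.90 CPM beside 3.95 to 5.76 CPM. *nsmce1*, a subunit of a complex that maintains chromosome structure, was at 9.73, 17 and 13 CPM beside 18.9 to 31 CPM. The remaining were *clic5*, *fam3a*, zgc:66433 and si:dkey-97a13.12, the last with at most 24 counts in a fish. In the 1 contig of si:dkey-97a13.12 no exposed fish reached 1.03 CPM, the level that every listed contig reached in 3 fish. The same held for a contig of zgc:66433, a contig of *tom1l2* and some contigs of *lamc1*. These contigs were listed only through the controls, which favours lower values in exposed fish.

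**Figure D2:**
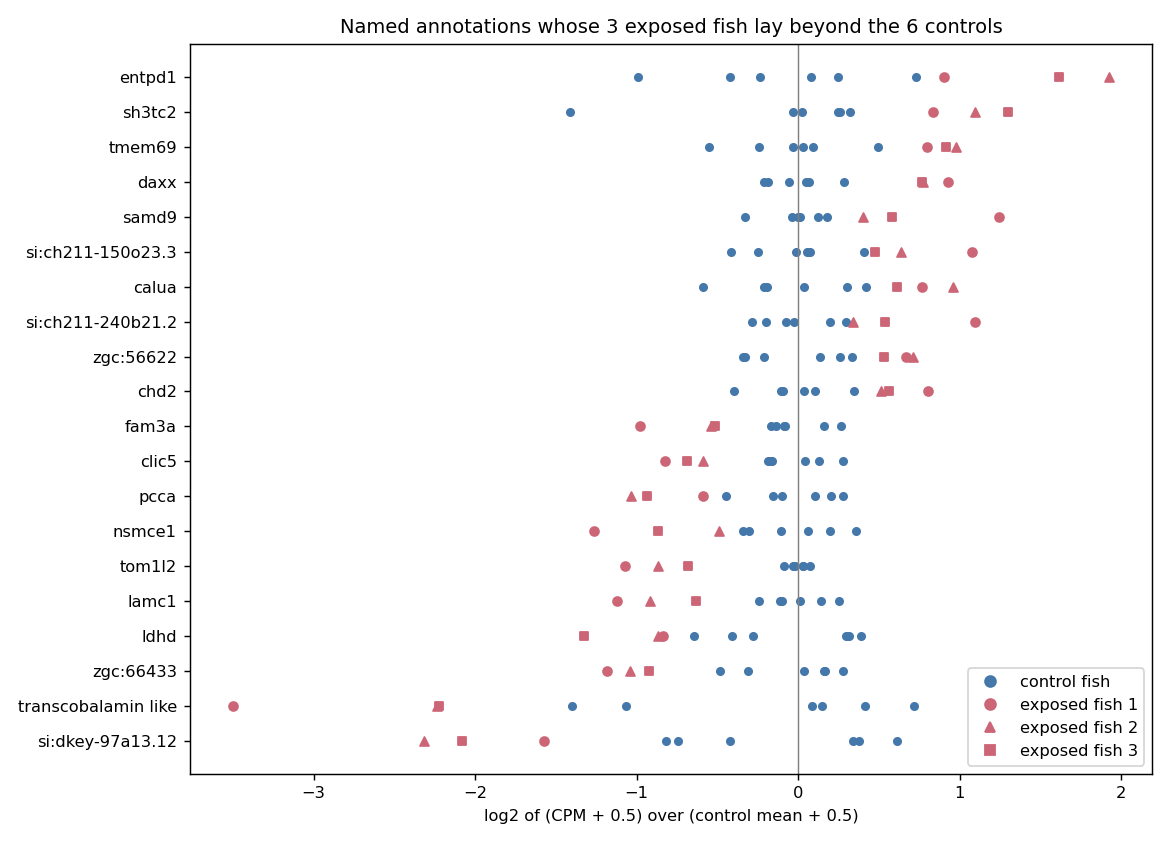
Each fish relative to the control mean, on a log2 scale with 0.5 CPM added, for the 20 named annotations with the lowest p among those in which exposed and control fish did not overlap. The annotations were picked for this separation, which 0.818% of all sums showed above and 0.671% below the controls; transcobalamin like lies farthest from 0 in exposed fish 1.

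Hemopexin and 3 other annotations of acute phase proteins were highest in exposed fish 2. Hemopexin (ENSDARG00000012609), the blood protein that binds free heme, was at 2925, 1665, 2361, 1799, 3231 and 3094 CPM in controls and at 5248, 13593 and 2966 CPM in exposed fish, a log2 fold change of 1.53 (standard error 0.41). Exposed fish 1 and 2 lay above all controls and exposed fish 3 lay within them. Among the 25 annotations of acute phase and iron genes, 4 were higher at an unadjusted p under 0.05 and none was lower, beside 1.47% and 1.26% over all sums, and the median log2 fold change was 0.054. Beside hemopexin these were C-reactive protein 1 (89.1, 293 and 148 CPM in exposed fish, 38.3 to 155 CPM in controls) and 2 annotations of alpha-2-macroglobulin, a protease inhibitor of plasma. Without exposed fish 2, 0 of the 25 had an unadjusted p under 0.05, and the log2 fold change of hemopexin was 0.71. The 31 complement annotations had a median log2 difference from controls of 0.505 in exposed fish 2, of -0.403 in exposed fish 1 and of 0.081 in exposed fish 3.

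*mat2aa* (ENSDARG00000040334), which encodes the enzyme that makes the methyl donor S-adenosylmethionine, was at 23.1, 7.33, 7.47, 15.4, 10.9 and 4.91 CPM in controls and at 27.8, 110 and 15.1 CPM in exposed fish. Its log2 fold change was 2.14 (standard error 0.56), and 0.90 without exposed fish 2. Exposed fish 2 thus lay far above all other fish. In the 24 annotations of methionine and cysteine metabolism 2 were higher at an unadjusted p under 0.05, beside 1.47% of all sums, and without exposed fish 2 there were 0. The median of this list was -0.113, and the median difference was 0.305, -0.055 and -0.375 in exposed fish 1, 2 and 3, so the list as a whole was not high in exposed fish 2. DNA-damage-inducible transcript 4-like, an inhibitor of growth signalling under stress, was at 6.67, 56.2 and 8.35 CPM in exposed fish and at 2.34 to 13.4 CPM in controls, so again 1 fish carried the difference. Over all annotations, exposed fish 2 exceeded all 6 controls in 15.8% and lay below them in 14.6%, against 14.1% and 13.8% for exposed fish 1 and 11.1% and 9.23% for exposed fish 3.

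The list of amino acid catabolism and the urea cycle, which also holds glutamine synthetase, had the lowest median of the lists plotted per fish. Over all 10886 sums, 5572 had a positive log2 fold change, which is the background for the counts of signs below. Of 76 annotations of amino acid catabolism and the urea cycle, 65 had a negative log2 fold change, and the median was -0.22. At an unadjusted p under 0.05, 6 were lower and none was higher, beside 1.26% and 1.47% over all sums. The 6 included *pcca* and both annotations of glutamine synthetase, the enzyme that fixes ammonia into glutamine. The form annotated glutamine synthase b was at 345, 193 and 211 CPM in exposed fish and at 336 to 758 CPM in controls (log2 fold change -1.08, standard error 0.36). The form annotated glutamine synthase a was at 5.99, 21.9 and 21.9 CPM, below all controls, which ranged from 25 to 80 CPM. Exposed fish 1 had a median log2 difference from the controls of 0.022 over this list, whereas exposed fish 2 and 3 had -0.38 and -0.294. Without exposed fish 1, 16 of the 76 were lower at an unadjusted p under 0.05, beside 2.62% of all sums. Without exposed fish 2 it was 4, beside 1.14% of all sums, and without exposed fish 3 it was 6, beside 2.04%.

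In fatty acid oxidation, 40 of 53 annotations had a negative value, 3 were lower and 1, *crot*, was higher at an unadjusted p under 0.05, beside 1.26% and 1.47% of all sums, with a median of -0.211. The 3 were the acyl-CoA dehydrogenase family member 11 (19.8, 12.2 and 18.6 CPM beside 22.7 to 34.8 CPM in controls), the trifunctional protein subunit annotated as hydroxyacyl-Coenzyme A dehydrogenase (103, 68.4 and 111 CPM beside 125 to 189 CPM) and 2,4-dienoyl CoA reductase 1. In the first and the second of these the groups did not overlap. Over the list, all 3 exposed fish lay below all controls in 3 of 53, beside 0.671% of all sums. Without exposed fish 2, 1 of the 53 was lower at an unadjusted p under 0.05, beside 1.14% of all sums. Without exposed fish 1 it was 5, beside 2.62%, and without exposed fish 3 it was 6, beside 2.04%. Oxidative phosphorylation genes had a negative value in 72 of 88 annotations and a median of -0.177. In this list 1 member (1.14%) was lower at an unadjusted p under 0.05, near the 1.26% of all sums. Its median difference was 0.095 in exposed fish 1, -0.262 in exposed fish 2 and -0.304 in exposed fish 3, so the fish did not share a decrease. Fatty acid synthesis had 24 of 30 negative values, and fatty acid desaturase 6 was at 7.58, 2.94 and 3 CPM beside 4.63 to 39.7 CPM in controls. Glycolysis and gluconeogenesis had a median of -0.029 over 49 annotations. At an unadjusted p under 0.05, 2 of them were lower and 0 higher, beside 1.26% and 1.47% of all sums. All 3 exposed fish lay below all controls for 2 of the 49, beside 0.671% of all sums. These were *ldhd* and glycogen synthase 2, the liver enzyme of glycogen formation. Glycogen synthase 2 was at 28.7, 26.8 and 24.9 CPM beside 31.3 to 48.3 CPM.

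Lists of cytosolic protein synthesis gave small positive medians, and mitochondrial ribosomal proteins a negative one. Of 81 cytosolic ribosomal protein annotations 70 had a positive log2 fold change, with a median of 0.107 and none at an unadjusted p under 0.05, and the median difference was -0.298 in exposed fish 1, 0.436 in exposed fish 2 and 0.138 in exposed fish 3. Without exposed fish 2 the median was -0.085. Of 75 mitochondrial ribosomal protein annotations 53 had a negative value and 1 was lower at an unadjusted p under 0.05 (1.33%, near the share of all sums), and their median was -0.107. In ribosome biogenesis 3 of 103 (2.91%) were higher at that limit, beside 1.47% of all sums, and without exposed fish 2 none was. Among them was NOP56, a core protein of the particles that methylate ribosomal RNA, at 46.5, 49.3 and 39.2 CPM beside 25 to 38 CPM in controls. Aminoacyl-tRNA synthetases had a median of 0.216 over 25 annotations, with 1 (4%) higher at an unadjusted p under 0.05, beside 1.47% of all sums. Their median difference was -0.206, 0.432 and 0.33 in exposed fish 1, 2 and 3. Without exposed fish 2 the median was 0.026, and none was under that limit. The list of endoplasmic reticulum translocation, folding and glycosylation held 1 member of 63 (1.59%) at an unadjusted p under 0.05, which is near the share of all sums. It was activating transcription factor 4b2, a regulator of the amino acid and stress response, at 29.3, 35.3 and 19.1 CPM beside 12.1 to 21.2 CPM in controls. Cholesterol synthesis had 0 of 28 at an unadjusted p under 0.05 in either direction and a median of -0.022.

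Among xenobiotic genes, *cyp1a* (ENSDARG00000026039), the cytochrome P450 induced through the aryl hydrocarbon receptor, was at 53.2, 7.18 and 32 CPM in exposed fish and at 3.46, 11.7, 6.74, 10.1, 14.9 and 20 CPM in controls. Exposed fish 1 and 3 exceeded every control and exposed fish 2 did not (log2 fold change 1.46, standard error 0.54). In conjugation and glutathione metabolism 4 of 40 were lower at an unadjusted p under 0.05 and none higher, beside 1.26% and 1.47% of all sums, among them cytosolic sulfotransferase 2 of family 1, at 235, 165 and 173 CPM beside 210 to 341 CPM. The count lower in this list was 1 without exposed fish 2 and also 1 without control 5, beside 1.14% of all sums each time. Without control 1 it was 6, beside 1.64%. The proto-oncogene annotated as myelocytomatosis oncogene homolog (*myc*) was above all controls, at 4.75, 3.43 and 3.63 CPM beside 0 to 1.98 CPM. On those of its contigs that all 3 E2 tables list it was at 1.16, 0.334 and 2.15 CPM beside 0 to 1.46 CPM in controls, and the groups overlapped. The separation of *myc* thus rests on contigs that are not listed in every E2 table. Their listing here may depend on the exposed fish, which was not tested, so the separation may be in part a condition of being listed. Lists with little difference included apoptosis (72 annotations, median 0.005), DNA replication and cell cycle (88, median 0.014) and lysosome and autophagy (84, median -0.029).

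**Figure D3:**
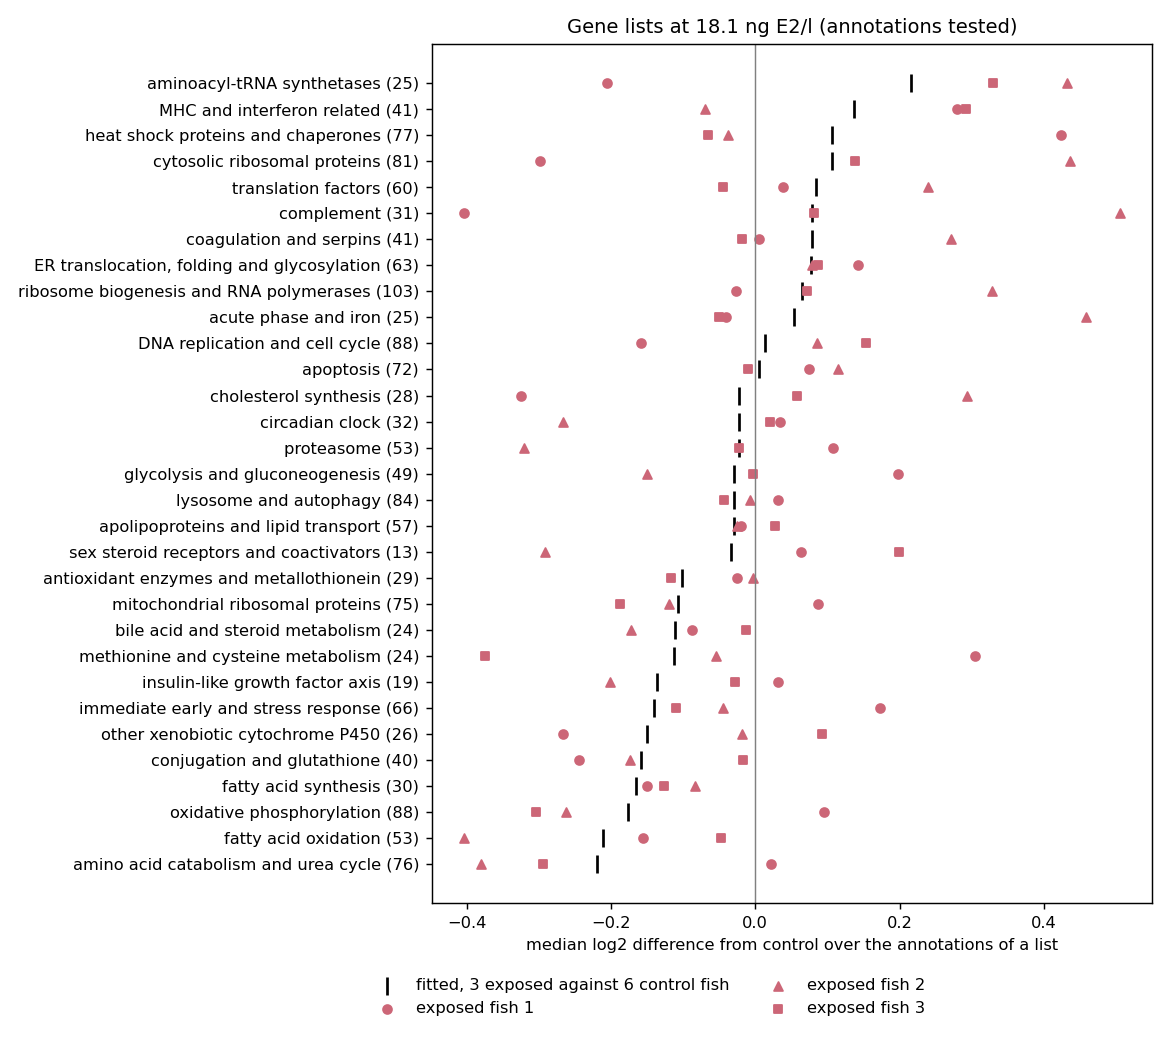
Median log2 difference from control over the annotations of each gene list with at least 10 tested members (number in parentheses), without the cell marker lists and the lists of genes most changed at 34.4 ng E2/l, as fitted over 3 exposed and 6 control fish (vertical bars) and in each exposed fish (points). The plotted fitted medians lie between -0.22 and 0.216, and exposed fish 1 and 2 lie on opposite sides of 0 in lists such as complement and cytosolic ribosomal proteins.

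Of the markers of other cells, 3 proteases among 5 exocrine pancreas annotations and 1 of 13 endothelial and stellate annotations were lower at an unadjusted p under 0.05, beside 1.26% of all sums, and none of 14 erythrocyte, 14 leukocyte and 7 bile duct annotations differed in either direction at that limit. Chymotrypsin-like was at 0.905, 0 and 0 CPM in exposed fish and at 7.25, 4.93, 2.17, 4.89, 10.5 and 0 CPM in controls, so that control 6 also held none. Chymotrypsin-like elastase family member 1 was at 0, 0.327 and 0 CPM beside 0 to 12.5 CPM. In both, no exposed fish reached the 1.03 CPM that every listed contig reached in 3 fish. Both were thus listed only through the controls, which favours lower values in exposed fish, and the share of all sums is no fair background for them. The sum of the pancreas list was 27.9 to 141 CPM in exposed fish and 23.6 to 87.7 CPM in controls, most of it from an amylase annotation. Summed leukocyte markers ran from 698 to 1282 CPM in exposed and from 634 to 1042 CPM in control fish, and erythrocyte markers from 496 to 821 CPM beside 284 to 786 CPM. Their part in the differences above was not tested.

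Set beside the other concentrations, with 15 fish scaled together over the contigs that all 3 E2 tables list, the group at 18.1 ng E2/l lay near the controls and the group at 1.9 ng E2/l. *esr1* was at 10.7 to 33.2 CPM in controls, at 109, 20.8 and 13.4 CPM at 1.9 ng E2/l, at 66.9, 72.7 and 28.7 CPM at 18.1 ng E2/l and at 516, 463 and 463 CPM at 34.4 ng E2/l. The ranges of the lower groups overlapped, since 1 fish at 1.9 ng E2/l exceeded all 3 at 18.1 ng E2/l, and the fish at 34.4 ng E2/l lay apart. *zp2.5* was at 157, 20.2 and 10.2 CPM at 1.9 ng E2/l, at 55.5, 166 and 44.9 CPM at 18.1 ng E2/l and at 3070, 3426 and 2414 CPM at 34.4 ng E2/l. No annotation differed between 18.1 and 1.9 ng E2/l (0 of 10535 at an adjusted p of 0.05 in edgeR's quasi-likelihood test, 296 at an unadjusted p under 0.05, and 0 with DESeq2). The log2 difference of *esr1* between these groups was 0.24 (standard error 0.63) and that of *zp2.5* 0.51 (standard error 0.87).

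Between 34.4 and 18.1 ng E2/l, tested directly, 39 of 10639 annotations (0.367%) were higher and 20 (0.188%) lower at 34.4 ng E2/l with an adjusted p under 0.05. Only contigs listed at both concentrations were summed for this test. Vitellogenins and nothepsin could therefore not enter it, and *aqp12* entered with 4 of its 6 contigs. Among the 11 annotations most raised at 34.4 ng E2/l that were listed here, 10 were higher at 34.4 than at 18.1 ng E2/l in this test. The log2 difference was 3.08 (standard error 0.43, adjusted p = 0.00367 by the quasi-likelihood test of edgeR) for *esr1*, 5.04 (standard error 0.73, adjusted p = 0.00402) for *zp2.5*, 4.43 (standard error 0.51, adjusted p = 0.000753) for *crot* and 4.73 (standard error 0.36, adjusted p = 2.18e-05) for *aqp12*. Of the 22 most lowered annotations 5 were lower at 34.4 than at 18.1 ng E2/l, among them *tat*, by a log2 difference of -1.81 (standard error 0.28, adjusted p = 0.00757). Both lists were chosen by the study from the same fish at 34.4 ng E2/l, a choice that favours such counts. The counts are therefore not an independent test of the lists. Among the raised members, *crot* and the egg envelope genes share an assembly component and are not separate measurements. Hemopexin was lower at 34.4 than at 18.1 ng E2/l, with a log2 difference of -2.55 (standard error 0.52, adjusted p = 0.0445). It was at 1277, 1898 and 688 CPM at 34.4 ng E2/l and at 5402, 13919 and 3052 CPM at 18.1 ng E2/l, highest in exposed fish 2. At 1.9 ng E2/l it was at 10671, 1424 and 3219 CPM, so a high level in a single fish was not limited to 18.1 ng E2/l. The comparison rests on the same 3 exposed fish, and when 1 fish at 34.4 or 18.1 ng E2/l was left out it called 20 to 52 annotations in place of 59. Of these, 20, 25 and 24 were without fish 1, 2 and 3 at 34.4 ng E2/l and 36 without exposed fish 1 at 18.1 ng E2/l.

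**Figure D4:**
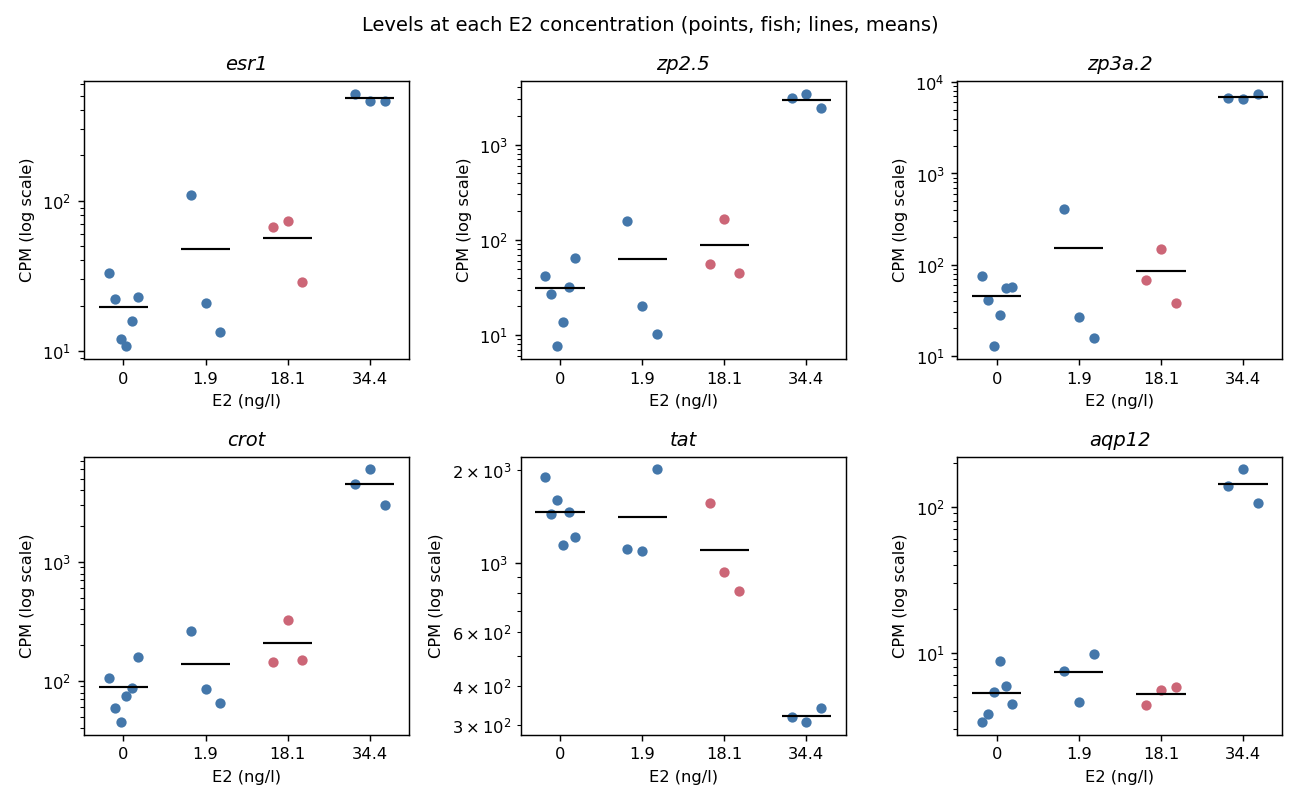
Levels in CPM (log scale) of 6 genes in control fish and in fish at each E2 concentration (ng/l), with 15 fish scaled together (points are fish, lines are means; fish at 18.1 ng E2/l in red). For *esr1* the fish at 18.1 ng E2/l lie at 28.7 to 72.7 CPM, overlapping the range of the fish at 1.9 ng E2/l and below the 463 to 516 CPM of the fish at 34.4 ng E2/l.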

How the data were processed

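Liver RNA of single fish was sequenced by the authors as paired-end reads, and reads of all samples and of another project were assembled de novo with Trinity. Per the labels and methods, Bowtie2 (version 2.1.0) placed each read on a single contig and SAMtools (version 0.1.18) gave the counts. The deposited counts per transcript were not normalized by the authors. The tables also hold the authors' own edgeR results (a log2 fold change, a p-value and an FDR for each transcript); these columns were not used here, nor were the linuron tables. Annotations came from the deposited tables, which pair Ensembl identifiers with descriptions; symbols are those that the study or the tables give with the same name.

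Counts were analysed per transcript and summed per Ensembl annotation in R 4.3.3 with edgeR 4.0.16: at least 1 count in at least 3 fish (which removed no feature), TMM scaling, the quasi-likelihood test, and a threshold of 0.05 after Benjamini-Hochberg adjustment. Standard errors were the log2 fold change divided by the square root of F. Fold values are ratios of mean CPM. Medians per fish compare log2 of CPM plus 0.5 with the control mean. The tests between E2 groups used only the contigs listed in both tables, summed per annotation, and all fish concerned, controls included. The alternatives were DESeq2 1.42.0, the exact test of edgeR with a prior of 10 degrees of freedom, other scalings and filters, a fit of all 15 E2 fish and the omission of each fish. Each test was tried on simulated data. Exact permutation tests of single genes used log2 of CPM plus 0.5 (scipy 1.17.1), and plots used matplotlib 3.10.9 under Python 3.11.15.

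The genes named were the 8 measured by RT-QPCR and *vapa*, the genes that the study lists as most changed at 34.4 ng E2/l, the 10 annotations in each direction with the lowest p among those whose 3 exposed fish lay beyond the 6 controls, annotations called in any fit, all zona pellucida and estrogen receptor members, and up to 4 members with the lowest p of each gene list. A few list members outside this rule were named after their values were seen. Genes and lists were chosen with earlier results of these data known. Lists were matched on the descriptions in the tables.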

Additional observations from a re-analysis of the deposited data

Results flagged for a closer look

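In 6 of 57 genes with values in the text, 1 of the 6 control fish lay far from the others, by Dixon's test of the gap to the nearest control over the range. Chance alone marks about 1 in 20 groups in this way. For *sh3tc2* this was control 3, at 0.963 CPM, and for *myc* also control 3, at 0 CPM, both below the other controls. For *zp2.2* it was control 6, at 52.9 CPM, above the other controls, and without that fish the log2 fold change was 2.21 in place of 1.63. Control 1 lay above the other controls for *igfbp1a* (1602 CPM), *ripk2* (4.94 CPM) and *diablo* (379 CPM). Without control 1 the log2 fold change was -1.54 in place of -2.47 for *igfbp1a*, 2.58 in place of 2.2 for *ripk2*, and 0.38 in place of -1.62 for *diablo*.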

How the results depend on the processing

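The count of transcripts called at 18.1 ng E2/l was 0 in the quasi-likelihood test and under every other setting except DESeq2 (1) and the exact test (2). The count of annotations was 0 except with DESeq2 (1), the exact test (2) and the replicate block (3). The replicate numbers were not taken to pair fish, since deviations of same-numbered fish correlated at 0.311, 0.0288 and 0.0157. The block called 0 transcripts, 67 annotations between 34.4 and 18.1 ng E2/l and 0 between 18.1 and 1.9 ng E2/l, and its 3 annotations at 18.1 ng E2/l were transcobalamin like, si:dkey-50i6.5 and diablo, of which the last 2 had an unadjusted p of 0.69 and 0.266 without it. Between 34.4 and 18.1 ng E2/l the count was 59, with DESeq2 313, with library totals 96, and 20 to 52 with 1 fish left out. Leaving out 1 fish gave 257 to 465 annotations with an unadjusted p under 0.05 in place of 297, the highest without exposed fish 1, and a minimum of 5 CPM in 3 fish gave 186. Of 741 gene values under these settings 20 reversed, in 7 genes with small or variable values. For *tgm2l* the replicate block gave -1.19 and leaving out 1 fish gave -2.2 (exposed fish 1) to 1.27. For *vapa* the block gave -0.08, the contig with the lowest p -0.47, and leaving out 1 fish -0.02 (exposed fish 1) to 0.23, with 0 for control 4. For *esr2a* library totals gave 0.08, the contig with the lowest p 0.45, and leaving out 1 fish -0.86 to 0.34, above 0 in 5 of the 9 cases. For *esr2b* leaving out 1 fish gave -0.01 (control 1) to 0.22. For *aqp12* the block gave 0.33 in place of -0.02 and leaving out 1 fish -0.12 to 0.18 (control 4). Leaving out 1 fish gave -8.06 (exposed fish 3) to 1.26 for si:dkey-50i6.5, in place of 0.68, and -4.45 (exposed fish 1) to 0.38 (control 1) for *diablo*, in place of -1.62. The causes were not tested. With 3 exposed fish and totals from 3889164 counts, sums of a few CPM rest on few counts, and a p that misses the threshold does not show that levels were alike.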
